A study of Homo sapiens with 16 samples.

Results

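Some stretches of the genome carried HIF-2α in more than 1 cancer cell line and HIF-1α in none of the lists analysed here. They were chosen by the measured peaks themselves: peaks of 16 lists with 1 bp or more in common were joined, which gave 11685 sites, and a site was kept when it held a HIF-2α peak, in either replicate, in 2 or more cell lines and no peak in any of the 8 HIF-1α lists. This left 182 sites, or 1.56% of all merged sites, called recurrent HIF-2α-only sites below. Of these, 180 lay on the assembled chromosomes and 2 on unplaced scaffolds, for which no distance or sequence is given. The peaks came from ChIP-seq, in which DNA bound by a protein is pulled down with an antibody and sequenced, in 4 human cancer lines grown in culture: A549 from lung, HCT116 from colon, PC3 from prostate and T47D from breast. All cells had been kept in 0.5% oxygen for 16 h, so that no group was grown in normal oxygen. Chromatin was precipitated with an antibody against HIF-1α (PM14) or HIF-2α (PM9), with 2 replicate libraries for each of the 8 combinations of line and antibody. The labels do not say whether replicates came from separate cultures, so that p-values measure the spread between these libraries, which may be technical. Lists of peaks hold no measure of a cell type's marker genes, and the identity of the lines was not checked.

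HIF-1 and HIF-2 are transcription factors made of an oxygen-regulated α subunit and a shared β subunit. In low oxygen the α subunit escapes degradation, joins the β subunit and binds the core sequence RCGTG (ACGTG or GCGTG) of hypoxia response elements. HIF-1 is known for its control of glycolytic genes, and HIF-2 for that of the erythropoietin gene. AP-1, a dimer of FOS and JUN proteins, binds TGACTCA at many enhancers. TEAD proteins are the DNA-binding partners of the growth regulators YAP and TAZ and bind sequences that contain GGAATG.

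The centres of 8 of the sites are shown to give the range of sequences found. Each is the plus strand of the central 200 bp of the best-ranked HIF-2α peak, from the GRCh37 reference genome. Capitals mark the HIF core, the AP-1 motif and the TEAD core on either strand, so that GGAATG on the minus strand appears as CATTCC. The sites near SNAPC1, LIF, NBPF6, APOH, TMEM44 and CCN1 were among the 20 best-ranked, and PPFIBP2 and FNDC3B stood for pairs of cell lines. The SNAPC1 centre holds none of the motifs, those near LIF, NBPF6 and CCN1 hold GGAATG with no RCGTG, those near APOH and PPFIBP2 hold RCGTG with no GGAATG, the FNDC3B centre holds both, and the centre near TMEM44 holds all 3 kinds.
SNAPC1, chr14:62222038-62222237: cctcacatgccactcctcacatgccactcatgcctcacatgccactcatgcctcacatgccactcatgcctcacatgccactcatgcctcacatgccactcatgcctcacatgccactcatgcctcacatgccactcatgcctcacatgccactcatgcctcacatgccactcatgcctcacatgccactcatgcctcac
LIF, chr22:30603023-30603222: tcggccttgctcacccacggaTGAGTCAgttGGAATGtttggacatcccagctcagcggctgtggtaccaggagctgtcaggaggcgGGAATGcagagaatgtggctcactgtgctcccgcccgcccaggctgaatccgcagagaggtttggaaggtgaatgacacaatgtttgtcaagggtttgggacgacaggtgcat
NBPF6, chr1:109045786-109045985: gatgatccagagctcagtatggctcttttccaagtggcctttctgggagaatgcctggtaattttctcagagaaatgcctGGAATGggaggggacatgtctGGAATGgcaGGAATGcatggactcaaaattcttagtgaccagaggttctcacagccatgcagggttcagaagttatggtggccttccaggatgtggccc
APOH, chr17:64271794-64271993: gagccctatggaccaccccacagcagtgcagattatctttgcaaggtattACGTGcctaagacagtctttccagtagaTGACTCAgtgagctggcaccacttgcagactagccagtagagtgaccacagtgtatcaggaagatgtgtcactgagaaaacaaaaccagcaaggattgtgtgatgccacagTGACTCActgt
TMEM44, chr3:194314295-194314494: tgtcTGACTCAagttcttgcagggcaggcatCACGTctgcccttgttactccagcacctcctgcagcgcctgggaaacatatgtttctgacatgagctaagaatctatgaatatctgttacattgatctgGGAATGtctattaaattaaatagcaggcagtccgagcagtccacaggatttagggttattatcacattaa
CCN1, chr1:86072886-86073085: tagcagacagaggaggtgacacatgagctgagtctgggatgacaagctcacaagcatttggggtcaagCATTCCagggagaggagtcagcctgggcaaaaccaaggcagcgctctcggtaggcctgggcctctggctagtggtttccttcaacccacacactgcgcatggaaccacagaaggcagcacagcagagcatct
PPFIBP2, chr11:7593703-7593902: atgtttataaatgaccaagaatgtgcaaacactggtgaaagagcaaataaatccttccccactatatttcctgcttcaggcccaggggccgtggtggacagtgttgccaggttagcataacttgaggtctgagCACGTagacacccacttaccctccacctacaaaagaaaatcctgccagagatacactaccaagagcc
FNDC3B, chr3:171858366-171858565: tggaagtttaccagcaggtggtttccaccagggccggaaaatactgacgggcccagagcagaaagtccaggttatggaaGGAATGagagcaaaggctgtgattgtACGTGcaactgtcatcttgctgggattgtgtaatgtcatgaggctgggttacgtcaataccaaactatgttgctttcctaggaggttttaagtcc

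The lines contributed unequally. A549 had a HIF-2α peak at 156 of the 182 sites (85.7%), PC3 at 137, HCT116 at 84 and T47D at 12. The pair A549 and PC3 alone accounted for 87 sites (47.8%), A549 and HCT116 for 37, and HCT116 and PC3 for 23. A549, HCT116 and PC3 together shared another 23. T47D entered with A549 at 7 sites, with PC3 at 2, with HCT116 at 1 and with A549 and PC3 at 2. In all, 157 sites had peaks in 2 lines, 25 in 3 lines and 0 in all 4. Since the rule asked for at least 2 lines, these counts describe the choice and carry no test.

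Support within a line was uneven as well. Both replicates held the peak at 89 of the 156 sites of A549, 38 of the 84 of HCT116, 5 of the 12 of T47D and 8 of the 137 of PC3. In PC3, 125 sites rested on replicate 2 alone, whose list held 1290 peaks against 275 in replicate 1. Counted over the 8 HIF-2α libraries, 62 sites had peaks in 2 libraries, 87 in 3, 25 in 4, 4 in 5 and 4 in 6. Without the second PC3 HIF-2α library 77 sites met the rule, and 20 did when both replicates of each line were required. Read depth is unknown and each library averages over a culture, so that weak binding, binding in few cells and a shallow library cannot be told apart in a missing peak. The 4 HIF-1α lists of A549 and T47D held 382 to 761 peaks, those of PC3 1517 and 3413, and those of HCT116 4505 and 4465.

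The recurrent HIF-2α-only sites made up 10.4% (Wilson 95% interval 8.92 to 12.1%) and 9.56% of the 2 A549 HIF-2α lists, 6.09 and 4.99% of those of HCT116, 4.36 and 10.3% of those of PC3, and 1.65 and 2.36% of those of T47D. These intervals cover counting error only. The score deposited with each peak, whose lowest value per list was 50 to 50.15, was used to rank peaks within a list. The median percentile of the sites' peaks was 54.6 and 53.2 for A549, while HCT116 gave 73.6 and 67.6, PC3 gave 55.1 and 54.1, and T47D gave 61.1 and 41.4. The sites were thus middle-ranked in most lists and ranked higher in HCT116, while the T47D values rest on 7 and 10 peaks.

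**Figure D1:**
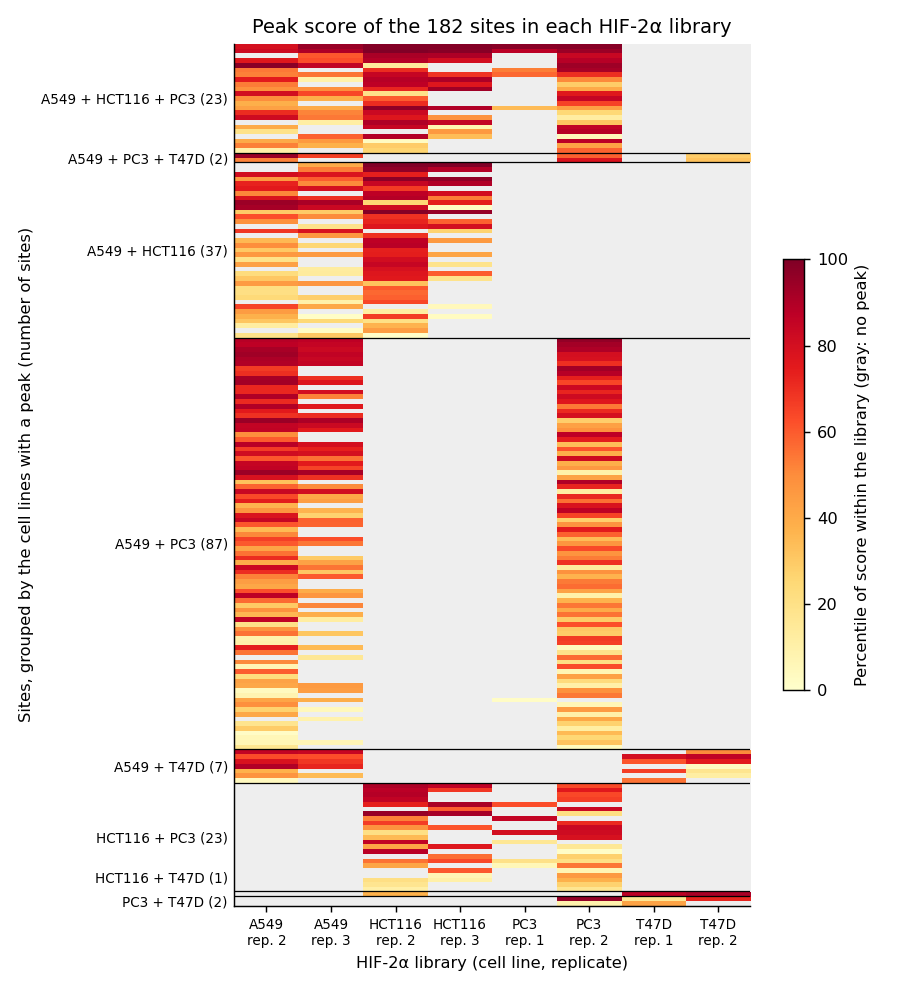
Percentile of the peak score within each HIF-2α library (color, 0 to 100) for the 182 sites (rows, grouped by the cell lines with a peak) in the 8 libraries (columns). Gray cells have no peak. The first PC3 library and both T47D libraries are almost empty, and the A549 and PC3 group of 87 sites is the largest.

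The best-ranked sites, ordered by the number of lines, the number of libraries and the mean percentile, were shared by A549, HCT116 and PC3. The first lay at chr14:62221324-62224090, 7000 bp upstream of SNAPC1, which encodes a subunit of the complex that starts transcription of small nuclear RNA genes. Its scores were 225.31 and 450.83 for A549, 546.4 and 440.23 for HCT116, and 248.68 and 447.74 for PC3, with a mean percentile of 94.7. All 6 libraries were high, and the nearest HIF-1α peak was 2459 bp away. Its centre, shown above, is a tandem repeat with a unit of 18 bp, 94.5% of its bases being equal to the base 1 unit further on. It was the only 1 of the 180 placed sites (0.556%) with at least 80% at any unit of 2 to 60 bp, against 0.506% of all merged sites, a measure added after the sequence was seen. The part of the repeat in its peaks was not tested. The second, at chr19:2540279-2541513, lay in an intron of GNG7, 64616 bp downstream of the start of the stress-response gene GADD45B. A549 scored 246.42 and 313.17 there, HCT116 672.4 and 383.25, and PC3 112.17 and 230.1.

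A further 2 sites had peaks in the same 6 libraries. The site upstream of KRBOX4 on chromosome X scored between 59.77 and 114.81, and the site 23744 bp upstream of CBX7, a Polycomb protein, between 53.97 and 311.4. Both had their lowest score in the first PC3 library, at percentiles 57.1 (KRBOX4) and 34.5 (CBX7) of its list. The site 39605 bp from LIF, a cytokine of the interleukin-6 family, had 5 peaks that scored from 91.34 to 194.88, and was 855 bp from the nearest HIF-1α peak. Sites near BDH1 (ketone body metabolism), NBPF6 and ERCC2 (a helicase of nucleotide excision repair) also had 5 peaks each.

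The other 12 of the first 20 had 4 peaks. Their nearest genes were PKP4 (a plakophilin-related protein of cell junctions), APOH (a plasma lipid-binding protein), TUFT1, CYP2A7 (a cytochrome P450), CFLAR (an inhibitor of caspase-8), TMEM44, CCN1 (a matricellular protein and known YAP target), BICC1 (an RNA-binding protein), NEK6 (a mitotic kinase), PAWR (a pro-apoptotic protein), PLB1 (a phospholipase) and IER2 (an immediate early gene). The site near APOH reached the score of 821.57 in A549 replicate 2 and 242.87 in replicate 3, but 52.09 in the 1 HCT116 library with a peak. CYP2A7 had the only site of this group with T47D, where it scored 56.33 in 1 library against 550.63 and 123.11 in A549. Both sites were high in A549 and close to the threshold in another line. In the second PC3 library the APOH site scored 226.41 and the CYP2A7 site 78.

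Each pair of lines is represented by its best-ranked site. For A549 and HCT116 this lay 1295 bp upstream of the nearest start of MYO1C, an unconventional myosin, with scores of 87.93 and 105.06 in A549 and 343.11 and 263.78 in HCT116. For A549 and PC3 it lay in an intron of FNDC3B, with scores of 347.91 and 247.78 in A549 and 281.76 in 1 PC3 library. The site of A549 and T47D was in PPFIBP2, a liprin of cell adhesion, and scored 129.69 and 112.92 in A549 and 116.78 and 194.22 in T47D, with all 4 libraries of the pair above 100. The site of HCT116 and PC3 lay 406912 bp upstream of its nearest gene, MMADHC (cobalamin metabolism), and had its lowest score at 51.82. Those of HCT116 and T47D, in RAI1, and of PC3 and T47D, near ZNF175, had theirs at 57.14 and 51.56.

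The rule has edges on both sides. Just inside, the sites near ANKRD11, DUSP4 and C1orf116 had scores of 50.11, 50.31 and 50.32 in their second line, so that a slightly higher threshold would have dropped them. In 110 of the 182 sites the score in the second line was under 74.55, the median of all peaks. Just outside, the sites near EPHA2, RIC1 and WFDC3 were left out for a single HIF-1α peak that scored 50.07, 50.22 and 50.24. Of the 485 sites with HIF-2α in 2 or more lines and any HIF-1α peak, 95 were left out by 1 HIF-1α peak alone, and 67 of those peaks came from PC3.

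The question of where the sites lie was asked of the distance from the centre of each peak to the nearest protein-coding start site. Recurrent HIF-2α-only sites lay far from genes' starts, with a median of 33340 bp and quartiles of 13972 and 79990 bp over the 180 placed sites. Set against protein-coding transcripts only, the centre was outside them, called intergenic, at 110 sites (61.1%) and in an intron at 66 (36.7%). It was in an exon outside coding sequence at 4 and in coding sequence at 0, which allows a share of up to 1.67%. A centre inside a noncoding gene could thus count as intergenic. Within 1 kb of a start site lay 9 of 180 (5.00%, Wilson 95% interval 2.65 to 9.23%), against a background of 45.5% of all merged sites. These 9 were at TEAD1, CLCF1 (a cytokine of the interleukin-6 family), COL7A1 (a basement membrane collagen), ANKRD11, VEPH1, DUSP4 (a phosphatase of MAP kinases), GRAMD1B, SLC43A3 and LTBP3 (a binding protein of latent TGF-β). Only the SLC43A3 centre among them held RCGTG.

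Library by library, the median distance of these sites was 34308 and 27397 bp for A549. HCT116 gave 29653 and 39626 bp, PC3 gave 44484 and 36368 bp, and T47D gave 13563 and 18195 bp. The T47D values were the lowest. At sites of both isoforms, that is with HIF-2α in 2 or more lines and any HIF-1α, the same 8 libraries gave 1204 to 9816 bp, with no overlap. The difference was 0.88 ± 0.28 on the log10 scale (SD over libraries), a factor of 7.65, and had the same sign in 8 of 8 libraries (two-sided exact sign-flip test, p = 0.00781, adjusted p = 0.0128 over 18 tests, the p being the smallest that 8 libraries can give). Libraries share sites within a line and, since the rule asked for 2 or more lines, between lines as well. Neither libraries nor lines are thus fully independent, and with the 4 lines as units no exact p can go below 0.125.

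Against 1513 recurrent HIF-1α-only sites, the mirror image of the rule, the difference was 2.26 on the log10 scale, and those sites had a median of 144 bp (exact relabelling within lines, adjusted p = 0.00694). Against the 2769 single-line HIF-2α sites, with HIF-2α in 1 line and no HIF-1α, the distance differed by -0.085 ± 0.28, in 5 of 8 libraries upward, and was not past the threshold (exact sign-flip p = 0.461, adjusted p = 0.488). The share within 1 kb differed from those sites by -4.27 points and was lower in 8 of 8 libraries (exact adjusted p = 0.0128). The first PC3 library and the 2 T47D libraries gave 0% of only 10, 7 and 10 peaks, and A549 replicate 3 differed by -0.13 points. With the start sites of all genes the difference in this share turned to 3.38 points the other way, and to 2.84 at a stricter score. With the start sites of all genes the distance itself passed, at -0.19 (exact adjusted p = 0.0128), while the 5 libraries with 20 or more peaks at these sites turned it to 0.092. Distance thus differed from sites that HIF-1α also bound, whereas its difference from single-line HIF-2α sites changed call and direction with the start sites and libraries used.

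**Figure D2:**
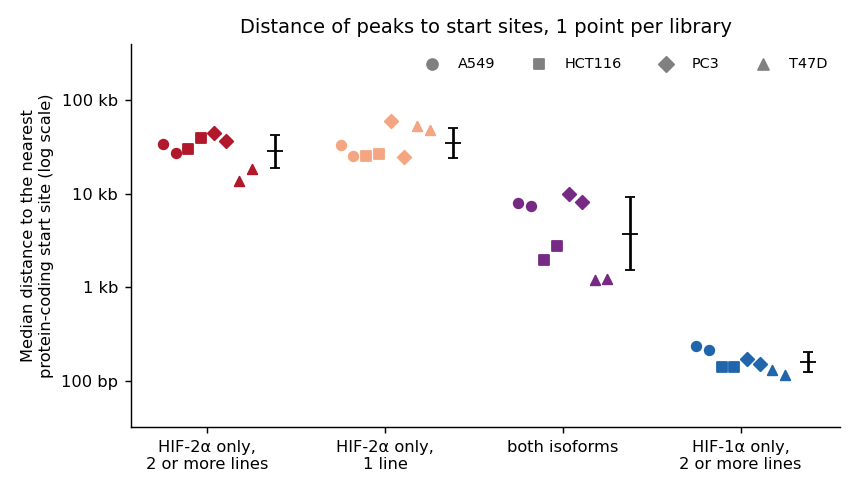
Median distance of peaks to the nearest protein-coding start site (log axis) in each library, by class of site, with the mean ± SD over 8 libraries in black. Symbols give the cell line. The recurrent HIF-2α-only sites lie at 13563 to 44484 bp, beside the single-line HIF-2α sites and above both other classes.

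HIF-1α peaks were absent from these sites by choice, but not from their surroundings. The median gap to the nearest HIF-1α peak of any line was 56905 bp, 36 sites (20%) had one within 10 kb and 5 within 1 kb. At the 2765 placed single-line HIF-2α sites the median gap was 87480 bp, with 327 (11.8%) within 10 kb and 48 within 1 kb. At 86 of 180 sites (47.8%, Wilson 95% interval 40.6 to 55.0%) the nearest gene had a HIF-1α peak within 1 kb of one of its own start sites. The share was 33.9% at single-line HIF-2α sites and 72.2% at sites of both isoforms. These shares are given as a description with no test.

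CpG dinucleotides, which are dense in promoter islands, were few. The central 200 bp held 3.85 to 5.86 CpG on average per library, against 10.1 to 16.0 at sites of both isoforms, without overlap (difference -8.44 ± 1.78, lower in 8 of 8 libraries, exact adjusted p = 0.0128). The recurrent HIF-1α-only sites held 19.1 on average (difference -14.3, exact adjusted p = 0.00694). Against single-line HIF-2α sites the difference was 0.49 ± 1.31 and did not pass the test (exact adjusted p = 0.387).

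The HIF core motif RCGTG was in the central 200 bp of 74 of 180 sites (41.1%, Wilson 95% interval 34.2 to 48.4%), against 21.9% of windows 5000 bp to either side and 51.1% of all merged sites. Split by its first base, ACGTG was in 57 sites (31.7%, flanks 8.89%) and GCGTG in 26 (14.4%, flanks 15.6%). The excess over the flanks thus lay in ACGTG, at 22.8 points, while GCGTG was at the level of its flanks. At recurrent HIF-1α-only sites GCGTG exceeded its flanks by 30.8 points and ACGTG by 25.9 points. GCGTG also exceeded its flanks by 5.77 points at single-line HIF-2α sites and by 22.1 points at sites of both isoforms. The split by first base was not matched for CpG, in which the classes differ, and was not tested.

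Per library, 48.6 and 48.5% of the sites' peaks held RCGTG for A549, and HCT116 gave 32 and 31.1%, PC3 gave 30 and 39.4%, and T47D gave 85.7 and 80%. The T47D values stand apart and rest on 7 and 10 peaks. At sites of both isoforms the same libraries gave 63.2 to 86.4%, and the difference was -27.5 ± 18.6 points (lower in 8 of 8, exact adjusted p = 0.0128). It fell to -13.8 points and missed the threshold when each peak was set against flanking windows with the same number of CpG (exact adjusted p = 0.0586). Against recurrent HIF-1α-only sites the difference was -20.5 points (exact adjusted p = 0.0139), and -0.067 with the CpG-matched windows (exact adjusted p = 0.985). Against single-line HIF-2α sites it was 12.5 ± 20.3 points and not past the threshold (exact adjusted p = 0.110), the T47D libraries giving 53.2 and 34.1 points and the other 6 between -4.29 and 8.63. Counted over sites, RCGTG was in 41.1% of recurrent against 36.6% of single-line sites. With both replicates required it was in 25% of 20, against 52.8%. At or above the median score it was in 46.2% against 48.5%, and with that filter on HIF-2α alone in 36.1% against 47.3%. The best peaks of each library, as many as in the shortest list, gave 54.7 and 49.1%. Without the second PC3 HIF-2α library it was 38.7 against 37.9%. These shares were not tested.

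The AP-1 motif TGACTCA was in 37 of 180 centres (20.6%), against 2.22% of flanks and 7.27% of all merged sites. Without the second PC3 HIF-2α library the share was 10 of 75 (13.3%), beside 12.3% of single-line HIF-2α sites, and with both replicates required it was 2 of 20 (10.0%), beside 20.4%. It occurred in 25.7 and 19.8% of the sites' peaks for A549, and HCT116 gave 18.7 and 17.8%, PC3 gave 0 and 25%, and T47D gave 0 and 20%, the zeros coming from lists with 10 and 7 such peaks. It was more frequent than at recurrent HIF-1α-only sites by 13.1 points, in 4 of 4 lines (exact adjusted p = 0.0192). Against single-line HIF-2α sites (4.26 ± 8.39 points, exact adjusted p = 0.216) and sites of both isoforms (-1.92 ± 10.6 points, exact adjusted p = 0.680) no difference was detected. The call against HIF-1α-only sites was lost at both stricter scores (10.9 and 10.6 points). With both replicates required, the AP-1 difference was -7.70 points from single-line sites and -8.23 points from sites of both isoforms (exact adjusted p = 0.0256 for each), while with the 275 best peaks of each library it was 5.58 points from sites of both isoforms (exact adjusted p = 0.0352). No direction against the other HIF-2α sites thus held across these settings.

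The TEAD core GGAATG was more frequent at these sites than at the other HIF-2α sites. It was in 74 of 180 centres (41.1%, Wilson 95% interval 34.2 to 48.4%), against 14.2% of their flanks, 17.0% of single-line HIF-2α sites, 15.7% of sites of both isoforms, 5.09% of recurrent HIF-1α-only sites and 11.0% of all merged sites. The test on this motif was added after its share had been seen, so that its p-values are not independent of that choice. Single-line sites exceeded their own flanks by 6.82 points, and recurrent HIF-2α-only sites theirs by 26.9 points. Of the 180 centres, 45 held 1 copy and 29 held 2 or more, the highest number being 5 at a site near UBR4.

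In the libraries GGAATG was in 35.4 and 39.6% of the sites' peaks for A549, and HCT116 gave 58.7 and 68.9%, PC3 gave 70 and 31.1%, and T47D gave 28.6 and 50%. HCT116 was high in both replicates, and the PC3 replicates differed, the first resting on 10 placed peaks. Single-line HIF-2α sites gave 24.6 and 20.3% for A549, and HCT116 gave 13.4 and 10.9%, PC3 10.3 and 19.8%, and T47D 15.9 and 16.0%, so that the 8 values of each class did not overlap. The difference was 31.4 ± 20.8 points and positive in 8 of 8 libraries (exact sign-flip adjusted p = 0.0128). Against sites of both isoforms it was 31.2 ± 15.2 points in 8 of 8 (exact adjusted p = 0.0128), and against recurrent HIF-1α-only sites 40.8 points in 4 of 4 lines (exact adjusted p = 0.00694).

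The mean over libraries of the difference from single-line sites depended on the score threshold. With only peaks at or above the median score of 74.55 kept in all lists, the mean difference from single-line sites was 4.13 points and not past the threshold (exact adjusted p = 0.711). In that setting HCT116 gave 63.6 and 56.5% against 33.8 and 36.8% at single-line sites, and A549 36.0 and 42.4% against 23.2 and 21.5%. The second PC3 library gave 27.5% of 69 peaks against 25% of 164, where the main setting had given 31.1 against 19.8%. The 2 shares were thus close in this well-filled library. The second T47D library gave 28.6% of 7 peaks against 23.4% of 77. The first T47D library gave 16.7% against 24.5%, and the first PC3 library had 3 such peaks, 0 with GGAATG, against 50% of 4 single-line peaks. Counted over sites, 44 of 104 recurrent sites (42.3%) held GGAATG there, against 24.3% of 912 single-line sites. With the filter on HIF-2α peaks alone the mean difference was 14.8 points (exact adjusted p = 0.342) and the shares over sites were 52.8% of 72 and 25.8% of 751. Without the second PC3 HIF-2α library the share was 62.7% of 75 placed sites. With both replicates required it was 75% of 20 recurrent sites, against 26.4% of 470 single-line sites.

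**Figure D3:**
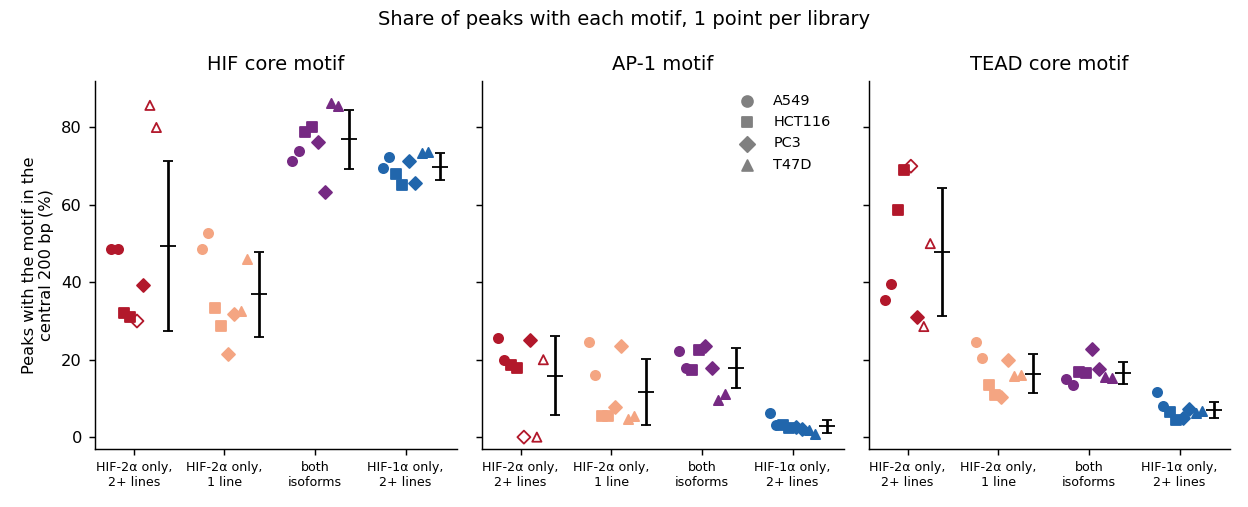
Share of peaks with each motif in the central 200 bp, 1 point per library, by class of site, with the mean ± SD over 8 libraries in black. Symbols give the cell line and open symbols mark libraries with fewer than 20 peaks in the class. For the TEAD core the recurrent HIF-2α-only sites lie at 28.6 to 70.0% and the single-line HIF-2α sites at 10.3 to 24.6%.

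The motifs lay near the peak centres. Within 100 bp of the centre GGAATG was found in 23.9% of sites per 100-bp bin, against 5.83% at 600 to 1000 bp, a ratio of 4.10. For TGACTCA the values were 11.1 and 1.39%, a ratio of 8, and for RCGTG 24.2 and 12.4%, a ratio of 1.94. GGAATG peaked in the bin just left of the centre with 28.3% of sites, and TGACTCA stayed at or above 10.0% out to 200 bp on both sides.

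**Figure D4:**
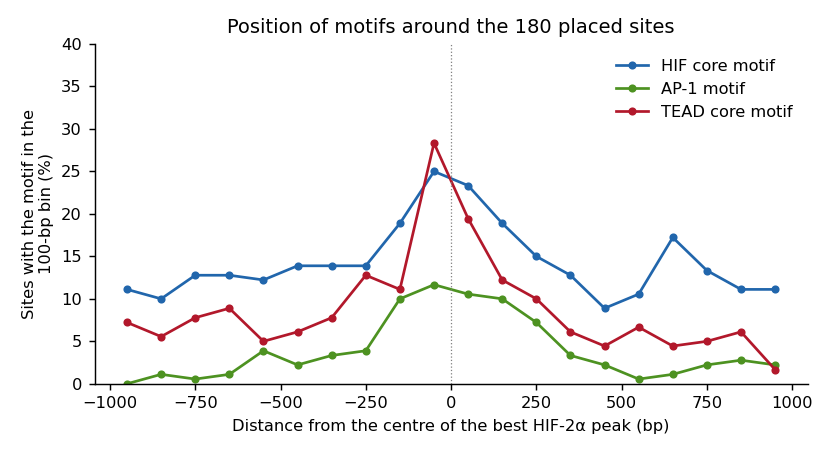
Share of the 180 placed sites with each motif in 100-bp bins, by distance from the centre of the best HIF-2α peak. All 3 motifs rise toward the centre, the TEAD core to 28.3% and the AP-1 motif to 11.7%.

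Which motif was present varied with the lines that shared a site. GGAATG was in 57.3% of the 82 placed sites with HCT116 and in 27.6% of the 98 without it. Among sites of A549 and PC3 alone it was in 22 of 87 (25.3%), among those of A549 and HCT116 in 22 of 37 (59.5%), among those of A549, HCT116 and PC3 in 14 of 23 (60.9%), and among those of HCT116 and PC3 in 11 of 21 (52.4%). The sites of A549 and T47D, without HCT116, also held it in 4 of 7 (57.1%). TGACTCA went another way, with 22 of 87 (25.3%) for A549 and PC3 and 2 of 37 (5.41%) for A549 and HCT116. RCGTG was in 8 of the 12 sites with T47D. These groups follow from the rule's own peaks, and their differences were not tested.

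**Figure D5:**
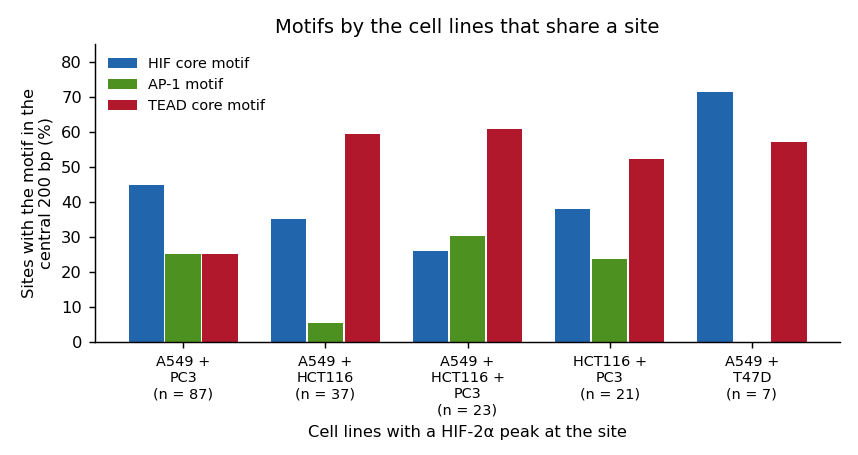
Share of placed sites with each motif in the central 200 bp, by the cell lines with a HIF-2α peak at the site (groups of 7 or more sites, numbers under the bars). The TEAD core is at 52.4 to 60.9% in the groups with HCT116, at 57.1% for the 7 sites of A549 and T47D, and at 25.3% for A549 and PC3.

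The motifs were counted alone and together, and no share expected from the frequency of each motif was computed. The counts therefore show no preference for standing alone or together. GGAATG alone was in 45 centres (25%), RCGTG alone in 35 (19.4%) and TGACTCA alone in 13 (7.22%). RCGTG stood with GGAATG in 20 centres, RCGTG with TGACTCA in 15, TGACTCA with GGAATG in 5, and all 3 together in 4. In 43 centres (23.9%), SNAPC1 among them, none was found, which says only that these letters are not in this window.

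Other motifs were searched on both strands in the same windows. RUNX (TGTGGT) was in 20% of the sites against 14.4% of their flanks and 9.77% of all merged sites. The forkhead motif (TGTTTAC) was in 5.56%, against 2.50% of flanks and 2.25% of all merged sites, and the antioxidant response element (TGANNNNGC) in 39.4%, against 25.8 and 32.2%. AGATAA, bound by GATA factors, was in 12.2% of sites and of flanks, against 4.57% of all merged sites. The GC box (GGGCGG), common in promoters, was in 13.9%, above the 4.72% of flanks and below the 36.3% of all merged sites. In the same order ETS (CCGGAAG) was in 1.67%, 0.556 and 4.96%, and AP-2 in 9.44%, 6.11 and 19.8%. The E-box CACGTG, which contains ACGTG, was in 2.78%, against 3.06% of flanks and 6.17% of all merged sites. CRE (TGACGTCA) was in 1.11%, against 0.278 and 0.729%, and C/EBP (the full site TTGCGCAA and its form TTGCACAA) in 1.67%, against 0.556 and 0.729%. At single-line HIF-2α sites RUNX was in 14.0%, forkhead in 4.20%, the antioxidant response element in 33.2% and AGATAA in 9.91%. The GC box was in 10.6% of them, ETS in 0.940%, AP-2 in 9.19%, the E-box in 3.76%, CRE in 0.470% and C/EBP in 1.30%. These shares carry no test.

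The genes near the sites were described with 9 lists, each counted over the 3 genes with the closest start sites of every placed site. No limit was set on the distance, so that a gene called near can be far away. Genes of the YAP and TEAD list were near 5 of 180 sites (2.78%), against 0.394% of all merged sites and 0.362% of single-line HIF-2α sites. The genes were CCN1, AMOTL2 (an angiomotin, which binds YAP) and TEAD1, with 1, 2 and 2 sites. GGAATG was in the centres of the CCN1 site, the AMOTL2 site 7634 bp from its start and the TEAD1 site 33 bp from its start. The other AMOTL2 site, 44531 bp away, held none. Nor did the other TEAD1 site, whose nearest start was that of RASSF10, 131497 bp away. Genes of the actin cytoskeleton and focal adhesion list were near 6 sites (3.33%, all merged sites 1.47%). They included ITGB1 (the integrin β1 chain), whose site 17879 bp upstream scored 320.62 and 229.95 in A549 and 202.92 in 1 PC3 library, and ANXA2 (an actin- and membrane-binding annexin), with 62.68 and 55.05 in A549 and 87.44 and 64.85 in HCT116, as well as TNS3, TNS4 and ITGB4.

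Genes described as HIF-2 targets in the literature were near 7 sites (3.89%, all merged sites 1.41%). A site 223711 bp upstream of IGFBP3, a binding protein of insulin-like growth factors, scored 506.48 and 350.99 in A549 and 54.15 and 78.67 in HCT116. CCND1 (cyclin D1) had 2 sites of HCT116 and PC3, the nearer one 143732 bp upstream, and ANGPTL4 (an inhibitor of lipoprotein lipase) had one of A549 and T47D inside RAB11B. LOXL2 (a lysyl oxidase) and BHLHE41 (a circadian repressor) accounted for the other 3. Growth factor receptors and ligands were near 4 sites (2.22%, all merged sites 0.806%), among them a site 51372 bp upstream of EGFR that held 3 copies of RCGTG and scored 432.21 and 213.04 in A549 and 174.12 in 1 PC3 library. The others were near PDGFB, FGFR4 and again EGFR. TGF-β signaling genes were near 3 sites (1.67%, all merged sites 0.712%), through LTBP3 with 2 sites and TGFB2 with 1, which lay 359944 bp from its start.

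The remaining lists had 2 sites each (1.11%). For the core HIF signature of the study, which was chosen in part on these libraries, this stood against 1.64% of all merged sites and concerned ANGPTL4 and ENO1. For glycolysis it stood against 0.566%, with ENO1 (an enolase) and SLC2A3 (a glucose transporter). For AP-1 and small MAF factors it stood against 0.600%, with FOSL2 and JUN, the JUN site lying 148907 bp from its start. For epithelial junctions, keratins and basement membrane it stood against 0.677%, with KRT8 and KRT80. The counts are too small to set a list apart, and neighboring sites can count the same gene more than once. Over all sites, 174 different genes were nearest, and AMOTL2, MB (myoglobin), MMADHC, SLC28A1, SSPN and TBC1D8 were nearest to 2 sites each.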

How the data were processed

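ChIP-seq for HIF-1α and HIF-2α had been performed by the authors in 4 cell lines, and 16 peak lists, 1 per library, were used. Per the methods and the submitters' processing notes, reads were trimmed with Trim Galore 0.3.3 and aligned to GRCh37 with BWA 0.7.5a-r405. Reads with a mapping quality below 15 were removed with SAMtools 0.1.19, blacklisted regions with bedtools 2.17.0 and duplicates with Picard 2.0.1. Peaks were called in each library with MACS in control mode, whose version and control are not given in the sources used here. Peak scores were deposited by the authors as the caller gave them, on a scale that is not stated, and served only to rank and filter. The filters by which the study combined a second caller, read counts and HIF-1β were not applied to these lists. Read depth is unknown, and lists of 275 to 4505 peaks set the precision.

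Groups came from the sample labels. Sites, members and comparison classes were built as described above with Python 3.11.15, numpy 2.4.6, scipy 1.17.1 and matplotlib 3.10.9. Start sites were those of protein-coding transcripts in GENCODE 44 mapped to GRCh37, and log10 was taken after adding 1 bp. Values were computed per library, and classes were compared by two-sided exact sign flips over the 8 HIF-2α libraries (256 combinations) or, against HIF-1α-only sites, by exact relabelling within lines (1296 combinations). Benjamini-Hochberg adjustment covered all 18 tests, and the threshold was 0.05. Named were the 20 best-ranked sites, the best of each pair of lines and up to 4 sites per gene list, and sites outside this rule were named after their values were seen. The members, lists and motifs were chosen with earlier results of these data known, and the 3 tests on GGAATG were added after it was seen in the centres. The sequences of some sites are not reported here. The functions were tested on simulated data. Distances and motifs left out 29 of 23398 peaks, which lay on alternate, unplaced or mitochondrial sequence.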

Additional observations from a re-analysis of the deposited data

Results flagged for a closer look

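A difference between cell lines was noted where both HIF-2α libraries of one line moved one way and both of another the opposite way. In each of the 3 cases the difference between the lines was not tested, and T47D was the second line, with 7 and 10 peaks at recurrent HIF-2α-only sites.

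Compared with single-line HIF-2α sites, the median distance to a start site differed on the log10 scale by 0.024 in A549 and by -0.50 in T47D, a gap of 0.53 between the lines. The same comparison gave 0.12 in HCT116, a gap of 0.63 from T47D. The mean number of CpG in the central 200 bp differed by -0.936 in HCT116 and by 2.31 in T47D, a gap of -3.25. By these values the recurrent sites in T47D were nearer to start sites and richer in CpG than the line's single-line HIF-2α sites. In HCT116 they were farther away and poorer in CpG than its single-line sites.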

How the results depend on the processing

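The number of recurrent HIF-2α-only sites was 104 with peaks at or above the median score, 72 with that filter on HIF-2α alone, 86 with the 275 best peaks of each library and 20 with both replicates required, and ran from 77 (without PC3 HIF-2α replicate 2) to 247 over the libraries left out. Differences below are recurrent HIF-2α-only sites minus the named class, in points for shares, in log10 for distance and as counts for CpG.

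With cell lines as units no exact p can pass the threshold. The values were then as above and no call was kept. Against sites of both isoforms they were 0.88 for distance, -35.2 within 1 kb, -27.5 for RCGTG, -8.44 for CpG and 31.2 for GGAATG. Against HIF-1α-only sites they were 2.26, -76.7, -20.5, -14.3 and 40.8, with 13.1 for AP-1, and against single-line sites -4.27 within 1 kb and 31.4 for GGAATG. An alternative chosen after seeing the data used only the 5 HIF-2α libraries with 20 or more peaks at these sites. Its sign-flip tests cannot pass either, but against HIF-1α-only sites all 6 calls were kept (2.29 for distance, -73.6 within 1 kb, -28.8 for RCGTG, 18.7 for AP-1, -14.4 for CpG and 36.98 for GGAATG, exact adjusted p = 0.0278 for each). It gave 0.84, -32.3, -33.5, -8.14 and 30.9 against sites of both isoforms, with AP-1 turned to 1.83, and 0.092 for distance, -3.45 within 1 kb, -0.26 for CpG and 28.9 for GGAATG against single-line sites, distance and CpG turning direction.

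Against single-line sites the share within 1 kb was the least stable result. It was -4.44 at a reciprocal overlap of 50%, -4.0 with the 275 best peaks, -1.56 with both replicates and -1.79 with 1 start site per gene, none of them past the threshold, and it turned to 2.84 at the stricter score and to 3.38 with start sites of all genes. Distance passed with start sites of all genes (-0.19). RCGTG passed with the 275 best peaks (14.3) and turned to -5.72 with both replicates, where AP-1 turned to -7.70 and passed and CpG passed at 1.0. With both replicates RCGTG was lower in every A549, HCT116 and PC3 library, at 11.1 to 36.8% against 27.8 to 59.7%. Both T47D libraries held it in 100% of 2 peaks, against 57.97 and 66.2%. GGAATG was no longer past the threshold at the stricter score in all lists (4.13) or in HIF-2α alone (14.8).

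Against sites of both isoforms, RCGTG missed the threshold at the stricter score (-26.1), with that filter on HIF-2α alone (-35.3), with the 275 best peaks (-14.5) and against CpG-matched windows (-13.8). AP-1 turned to 5.58 and passed with the 275 best peaks and passed at -8.23 with both replicates, and GGAATG missed it at the stricter score (16.8). Against HIF-1α-only sites, RCGTG missed it at the reciprocal overlap (-15.5), the stricter scores (-18.0 and -27.1), the 275 best peaks (-6.65) and the CpG-matched windows (-0.067), and AP-1 at the stricter scores (10.9 and 10.6). The causes were not tested.

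Leaving out each library in turn gave these ranges. Against single-line sites they were -0.14 to -0.011 for distance, -5.09 to -3.07 within 1 kb, 6.58 to 16.5 for RCGTG, 2.60 to 6.16 for AP-1, 0.16 to 1.02 for CpG and 24.6 to 40.9 for GGAATG. Against sites of both isoforms they were 0.83 to 0.95, -37.5 to -33.3, -31.6 to -23.6, -4.70 to 1.32, -9.02 to -8.01 and 25.2 to 40.7. Against HIF-1α-only sites they were 2.23 to 2.28, -77.7 to -74.6, -22.3 to -17.0, 8.18 to 16.4, -14.5 to -13.8 and 34.4 to 51.4. Some calls turned on a library: the share within 1 kb without A549 HIF-1α replicate 3 (-3.07), HCT116 HIF-1α replicate 2 (-3.57) or PC3 HIF-2α replicate 2 (-4.41), and RCGTG against sites of both isoforms without PC3 HIF-2α replicate 2 (-29.2), missed the threshold. RCGTG against single-line sites passed it without A549 HIF-2α replicate 3 (15.3), HCT116 HIF-1α replicate 2 (12.5) or PC3 HIF-1α replicate 2 (16.5), and AP-1 without the last (5.23), while AP-1 against sites of both isoforms turned to 1.32 without PC3 HIF-2α replicate 1.

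Pairing libraries by replicate number as a block, in the comparison with HIF-1α-only sites, left every value and call as it was, with 2.26 for distance, -76.7 within 1 kb, -20.5 for RCGTG, 13.1 for AP-1, -14.3 for CpG and 40.8 for GGAATG. The numbers were not taken to pair the libraries, since the replicates' rank differences of HIF-1α and HIF-2α correlated at 0.025 in A549 and 0.088 in HCT116, against 0.35 in PC3 and 0.29 in T47D.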
